A study of Mus musculus with 15 samples.

Results

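The response of CD4+ T cells to a low-level stimulus of the T-cell receptor (TCR) was described here across both genotypes of the study, as 6 paired differences. Each pair set the array of stimulated cells against the control array of the same genotype and the same replicate number, so that 12 of the 15 arrays of the series were used, and genotype was ignored. The mean of the 6 differences was tested against 0 on 45101 probe sets, and probe sets with the same sign in all 6 pairs are described. The groups were stimulated cells labelled N-ras KO (3 arrays), stimulated cells labelled WT (3 arrays), control cells labelled N-ras KO (3 arrays) and control cells labelled WT (3 arrays). N-ras KO mice, which lack the Ras isoform N-ras in all tissues, and their WT littermates were on the 129/SJ background and were 6 to 20 weeks old. CD4+ T cells of the spleen were sorted by flow cytometry and kept overnight in T-cell growth medium, with antibodies to CD3 and CD28 at 1 µg/ml in the stimulated cultures and without them in the controls. Of the source of a pair, the study's methods say both that sorted cells were divided between the cultures and that each condition used its own mouse. All values are log2 units, and a difference of 1 is a 2-fold difference.

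Antibodies to CD3 and CD28 engage the TCR complex and its costimulatory receptor. Signals then run through Ras and the ERK kinases, through calcium and NFAT, and through NF-kappaB. The first genes to respond encode transcription factors of the Egr, Nr4a and Fos families, followed by surface molecules such as CD69, by cytokines and their receptors, and later by the machinery of cell growth and division, while genes that keep T cells resting are turned down. An overnight culture is late for the first wave and early for division.

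Nras was read first, as a check of the labels. On probe set 1454060_a_at it stood at 0.51, 0.08 and 2.09 in the stimulated arrays labelled N-ras KO and at -3.04, -0.10 and 0.00 in those labelled WT, against 0.00, -0.04 and 2.04 in the control arrays labelled N-ras KO and -2.68, 0.28 and 0.00 in those labelled WT. Controls of each genotype had been centred on 0, so levels cannot be compared between the genotypes, only between arrays of 1 genotype. On this probe set and on 1422688_a_at the pair labelled N-ras KO 3 was high and the pair labelled WT 1 low, in both of its arrays, which goes against these labels. On 1422687_at N-ras KO 3 was high as well, but WT 1 was low in its control array (-1.61) and at -0.14 in its stimulated one. The genotype labels do not enter the test of the mean, and without both of these pairs no probe set passed the adjusted threshold either (smallest adjusted p = 0.516). Nras itself differed by -0.01 between stimulated and control cells (standard error 0.137, adjusted p = 0.988).

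The values had been set by the authors to a median of 0 over the 3 control arrays of each genotype, on all 45101 probe sets, so they hold no brightness and the presence of CD4+ T-cell markers could not be read from them. The constant cancels within a pair. The SD of the differences over all probe sets lay between 0.492 (WT 3) and 0.794 (N-ras KO 3), and their medians between -0.02 and 0.03. Correlations of the differences between any 2 pairs, across the 45101 probe sets, ranged from -0.01 to 0.13 with a median of 0.04. The difference between 3′ and 5′ probe sets, a sign of RNA quality, was lower on average by -0.04 for Gapdh and higher by 0.09 for Actb in stimulated cells (exact sign-flip test over 6 pairs, p = 0.469 and p = 0.156, smallest possible p = 0.0312). The arrays of stimulated cells had a wider spread, with a mean SD of 0.704 against 0.559 in the control arrays (higher in 6 of 6 pairs, p = 0.0312 by the same exact test), in data where only the controls were centred on themselves.

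No probe set passed an adjusted p of 0.05 in either direction (0% of 45101 tested, limma). The smallest adjusted p was 0.149, and 11 probe sets had an adjusted p under 0.2, 9 of them higher and 2 lower in stimulated cells, each with the same sign in all 6 pairs. At an unadjusted p under 0.05 there were 1357 higher and 1564 lower probe sets. The paper compared stimulated with unstimulated cells within each genotype. Its unpaired t-test was run here on the 6 stimulated against the 6 control arrays, with both genotypes together. This gave 183 higher and 239 lower at that threshold together with 1.5-fold, and 0 after adjustment. Differences named below are therefore measured values and not calls. They cover genes with the same sign in all pairs and, set beside these, genes with mixed signs. The same sign in all 6 pairs was seen for 1090 higher probe sets (2.42% of all tested), which stand for 819 genes, and for 961 lower probe sets (2.13%), which stand for 724 genes. A gene whose probe sets went opposite ways counts in both, as 10 did. Signs that fell at random and independently would agree in all 6 pairs with a probability of 0.0312, and 4.55% of probe sets had 1 sign. Many of these probe sets therefore need not reflect a shared response.

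**Figure D1:**
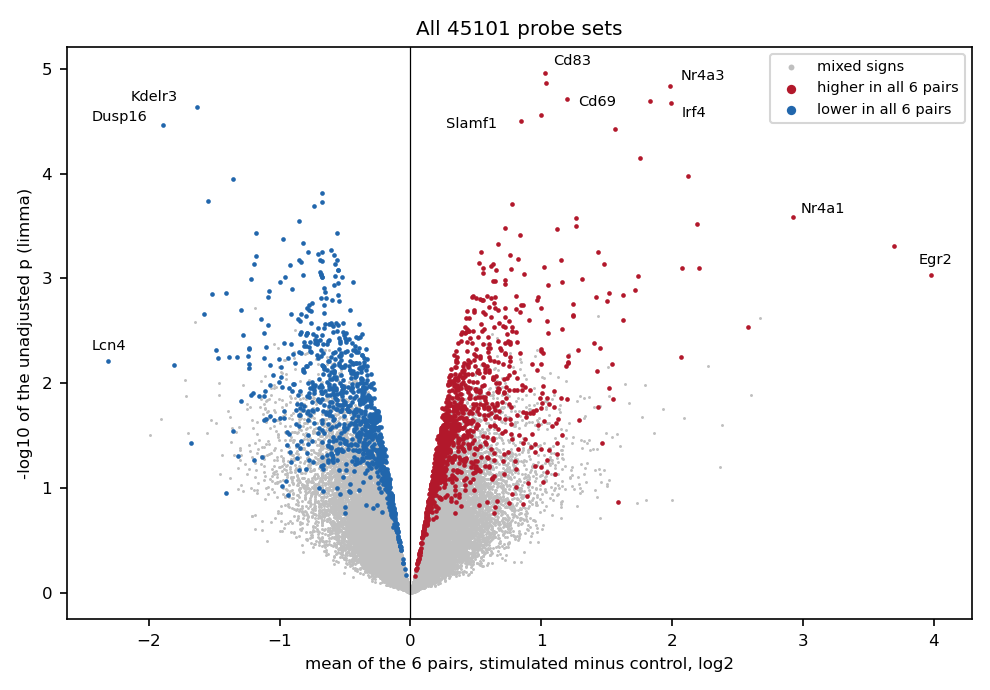
Each point is 1 of 45101 probe sets, with the mean of the 6 paired differences (stimulated minus control, log2) on the x axis and -log10 of limma's unadjusted p on the y axis. The 1090 red and 961 blue points were higher or lower in all 6 pairs, and Egr2 had the largest mean difference, at 3.98.

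Few of them were large in every pair. A difference of at least 1.5-fold in each of the 6 pairs was found for 21 higher probe sets (0.0466% of all tested) of 18 genes, and for 8 lower probe sets (0.0177%) of 7 genes and 1 probe set without a gene, 1458389_at. At 2-fold in each pair there were 8 higher and 2 lower probe sets. The 18 higher genes were the transcription factors Egr1, Egr2, Nr4a1, Nr4a3, Irf4 and Crem, the surface proteins Cd69, Cd83, Slamf1, Tnfrsf9, Fcer2a and Vcam1, the cytokine Il21, the interferon-inducible GTPase Iigp1, the tRNA methyltransferase Mettl1, and Mreg, Tmem17 and Ankrd33b. The 7 lower genes were Dusp16, Kdelr3, Ago4, Kif3a, Bnip2, Tyw1 and Tmem141.

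**Figure D2:**
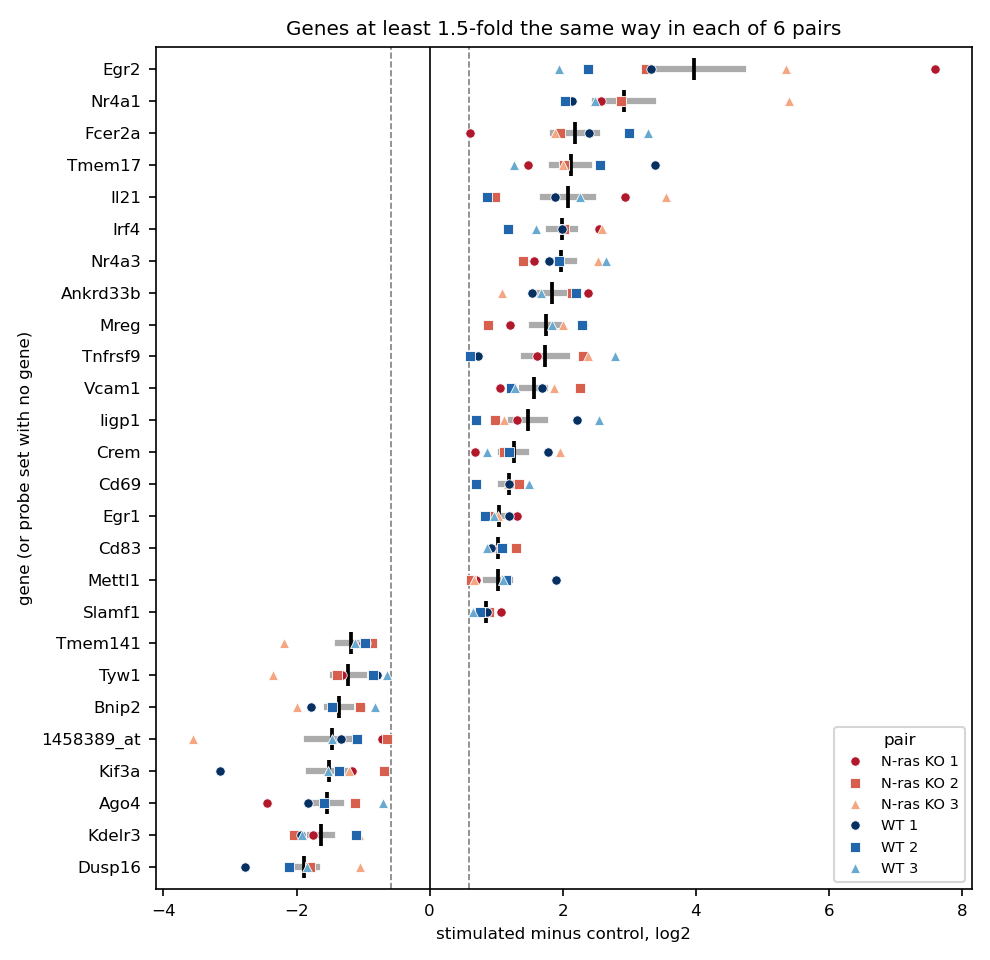
Stimulated minus control (log2) in each of the 6 pairs for the 18 genes at least 1.5-fold higher and the 7 genes and 1 unnamed probe set at least 1.5-fold lower in every pair, 1 probe set per gene. Points are pairs (N-ras KO in red, WT in blue), black ticks the mean, grey bars the mean ± standard error, and dashed lines 1.5-fold; the pairs of Egr1, Cd83 and Slamf1 lie close together, and those of Egr2 spread from 1.95 to 7.60.

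The early growth response factors, zinc finger proteins that couple ERK and calcium signals to transcription, held the largest difference. Egr2 (chromosome 10, probe set 1427683_at) stood at 5.23, 4.17 and 5.36 in the stimulated arrays labelled N-ras KO and at 2.82, 2.37 and 2.20 in those labelled WT, against -2.36, 0.92 and 0.00 in the control arrays labelled N-ras KO and -0.51, 0.00 and 0.25 in those labelled WT. Every stimulated array lay above every control array, as was the case for 31 probe sets in all (0.0687% of those tested), and the mean difference was 3.98 (standard error 0.732, 15.7-fold, adjusted p = 0.569). The other probe set of Egr2 gave 3.70 with the groups apart as well. Here and below, overlap is read over the arrays of both genotypes. Each genotype was centred on its own controls, so overlap depends in part on that centring. Egr1 was more even, with paired differences of 1.31, 0.89 and 1.03 in the N-ras KO and 1.20, 0.84 and 0.97 in the WT pairs, and a mean of 1.04 (standard error 0.099, adjusted p = 0.149). Its arrays overlapped, from 0.67 to 2.30 in stimulated and from -0.64 to 1.28 in control cells, since both arrays of the pair N-ras KO 3 were high. Egr3 was higher in all pairs on both of its probe sets, but by 0.12 on one and by 2.58 on the other, where the pair N-ras KO 1 gave 0.31 and N-ras KO 2 gave 4.91.

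The Nr4a genes encode orphan nuclear receptors that are induced by TCR signals and limit T-cell responses. Nr4a1 (chromosome 15) differed by 2.58, 2.88 and 5.41 in the N-ras KO pairs and by 2.13, 2.03 and 2.49 in the WT pairs. Its stimulated arrays ranged from 1.59 to 4.17 and its control arrays from -1.24 to 0.96, without overlap, and the mean was 2.92 (standard error 0.437, 7.57-fold, adjusted p = 0.569). Nr4a3 (chromosome 4, probe set 1438796_at) differed by 1.56, 1.41 and 2.53 in the N-ras KO and 1.79, 1.95 and 2.65 in the WT pairs, with a mean of 1.98 (standard error 0.190, adjusted p = 0.149). Here the groups overlapped, from 0.58 to 3.41 in stimulated and from -0.98 to 0.88 in control arrays, and its 2 other probe sets did not keep 1 sign. Nr4a2 was higher in all pairs on 1 of its 6 probe sets, by 0.01 to 2.44 with a mean of 0.91, and its representative probe set had mixed signs.

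The 250 bases before the annotated start of these 3 genes are shown because their promoters share a short motif, TGACG. It is the core of the sites that CREB and ATF factors bind. Nr4a1 and Nr4a3 belong to the genes at least 1.5-fold higher in each pair, and Nr4a2 does not. The motif was searched on both strands, so that it reads CGTCA where it lies on the other strand, and was chosen after the values were seen. Capitals mark it, the sequences are RefSeq's, and each ends at the last base before the start.
Nr4a1 (GRCm38.p6, chr15:101266596-101266845, plus strand): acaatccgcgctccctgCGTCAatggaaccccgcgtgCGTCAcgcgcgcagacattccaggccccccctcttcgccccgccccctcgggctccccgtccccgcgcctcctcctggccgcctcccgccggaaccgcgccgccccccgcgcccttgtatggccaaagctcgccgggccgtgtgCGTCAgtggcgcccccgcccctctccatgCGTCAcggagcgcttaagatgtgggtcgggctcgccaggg
Nr4a2 (GRCm38.p6, chr2:57124004-57124253, minus strand): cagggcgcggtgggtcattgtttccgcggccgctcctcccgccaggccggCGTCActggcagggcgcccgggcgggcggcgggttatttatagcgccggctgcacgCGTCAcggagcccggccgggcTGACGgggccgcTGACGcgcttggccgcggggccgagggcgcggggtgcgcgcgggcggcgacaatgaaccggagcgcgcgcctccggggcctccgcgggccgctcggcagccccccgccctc
Nr4a3 (GRCm38.p6, chr4:48045055-48045304, plus strand): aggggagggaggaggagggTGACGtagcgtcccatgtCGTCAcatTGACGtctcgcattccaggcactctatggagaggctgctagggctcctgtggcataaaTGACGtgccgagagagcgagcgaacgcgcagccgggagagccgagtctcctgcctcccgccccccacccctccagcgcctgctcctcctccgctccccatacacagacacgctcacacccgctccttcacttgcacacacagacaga
Each of the 3 held 4 copies. At least 1 copy was in 17.8% of 32851 promoters of this length, and at least 4 were in 45 of them (0.137%). Of the 18 genes at least 1.5-fold higher in each pair, 12 had a promoter in the table, 4 of these held the motif and 2 held it 4 times. Of the 7 lower genes all had a promoter and 4 held it. A gene counts here if any of its listed starts held the motif, whereas the shares are per promoter (32851 promoters of 27025 genes). The counts and the shares are therefore not like for like. The promoter of Egr2, for 1 of its 5 listed starts, is given for the CArG box, the site of serum response factor, which lies at -73 to -64 from the start and is in capitals.
Egr2 (GRCm38.p6, chr10:67537620-67537869, plus strand): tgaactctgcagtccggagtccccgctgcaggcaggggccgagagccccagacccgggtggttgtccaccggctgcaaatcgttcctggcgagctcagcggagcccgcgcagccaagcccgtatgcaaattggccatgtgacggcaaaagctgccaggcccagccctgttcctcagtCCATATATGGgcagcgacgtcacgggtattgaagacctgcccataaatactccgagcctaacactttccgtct
A CArG box was in 1.47% of the 32851 promoters, and at any listed start of 2 of the 12 higher genes, which is again a count by gene. These matches describe the sequence alone.

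Of the 26 measured immediate early transcription factors, taken by 1 representative probe set per gene, 5 were higher in all 6 pairs (Egr1, Egr2, Egr3, Nr4a1 and Myc), and 1, Klf6, was lower in all of them. Among all 18194 genes taken the same way, 2.63% were higher and 2.12% lower in all pairs. The list counts below are to be read beside these shares, and counts of 1 or 2 members say little about a list. The median of the 26 mean differences was 0.21, against 0.01 over all genes, and 21 of the 26 means were above 0. With any probe set counted, Nr4a2, Nr4a3 and Fosl2 were higher as well. Fos, the partner of Jun in AP-1, had a mean of 2.27 but was at -0.05 in the pair N-ras KO 1. Jun, Jund and Atf3 had mixed signs. Klf6, a Krüppel-like factor, was lower in every pair on 4 of its 5 probe sets, by -0.59 on the most distinct one (standard error 0.132, adjusted p = 0.722).

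**Figure D3:**
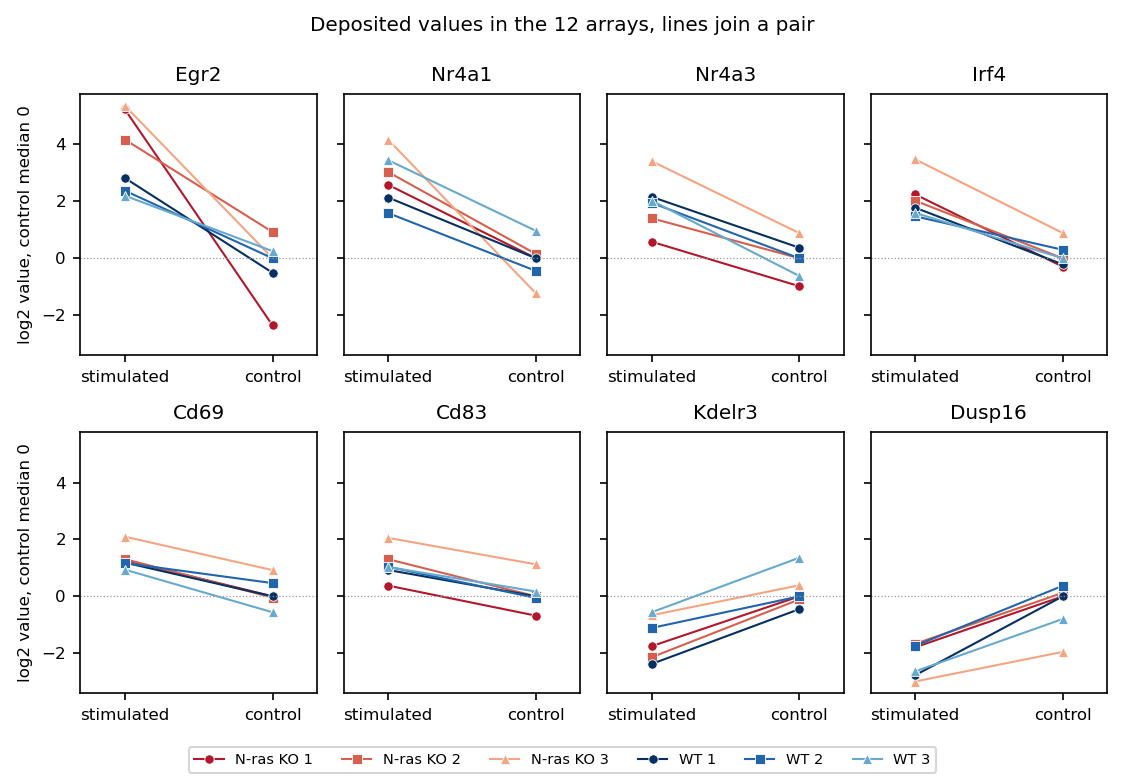
Deposited log2 values of 8 genes in the 6 stimulated arrays (left in each panel) and the 6 control arrays (right), with a line joining the arrays of a pair and the median of each genotype's controls at 0. Taken over both genotypes, each centred on its own controls, the groups do not overlap for Egr2, Nr4a1, Irf4, Cd69 and Kdelr3. They overlap for Nr4a3, Cd83 and Dusp16, and the 6 differences of Cd83 lie between 0.86 and 1.31.

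Irf4 encodes a transcription factor whose level follows the strength of the TCR signal and which drives effector differentiation. It stood at 2.25, 2.03 and 3.48 in the stimulated arrays labelled N-ras KO and at 1.78, 1.48 and 1.60 in those labelled WT, against -0.29, 0.00 and 0.89 in the control arrays labelled N-ras KO and -0.21, 0.30 and 0.00 in those labelled WT. The groups did not overlap, the mean difference was 1.99 (standard error 0.202, 3.97-fold, adjusted p = 0.149), and the second probe set gave 1.72. Of the 23 effector transcription factors measured, Irf4 and Ikzf4 were higher in all pairs (8.7%), none was lower, and the median was 0.15. Nfatc1, the NFAT member with an inducible isoform, was higher in all pairs on 1 probe set by 0.29, while Nfatc2 and Runx1 were lower on 1 probe set each, by -0.14 and -0.58.

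Surface receptors of activation were the list with the highest share on one side. Of 24 measured members, 8 (33.3%) were higher in all pairs and 1 was lower, and the median was 0.28. Cd69, which retains activated T cells in lymphoid tissue, stood at 1.28, 1.31 and 2.10 in the stimulated arrays labelled N-ras KO and at 1.19, 1.17 and 0.94 in those labelled WT, against 0.00, -0.04 and 0.92 in the control arrays labelled N-ras KO and 0.00, 0.47 and -0.56 in those labelled WT. On these centred values the groups lay apart by a narrow margin, between stimulated WT 3 (0.94) and control N-ras KO 3 (0.92), arrays of different genotypes. Within each genotype the stimulated arrays also lay above the control arrays. The mean difference was 1.20 (standard error 0.120, 2.30-fold, adjusted p = 0.149). Cd83, a marker of activated lymphocytes and dendritic cells, had the smallest p of all probe sets, with a mean of 1.03 (standard error 0.095) and pairs between 0.86 and 1.31. Slamf1, a costimulatory receptor, differed by 0.66 to 1.08 with a mean of 0.84 (standard error 0.091, adjusted p = 0.155), although its stimulated arrays (-0.04 to 1.81) and control arrays (-0.86 to 0.92) overlapped.

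Tnfrsf9, the costimulatory receptor 4-1BB, differed on probe set 1428034_a_at by 1.61, 2.30 and 2.38 in the N-ras KO and 0.73, 0.61 and 2.79 in the WT pairs, with a mean of 1.74. Its representative probe set, 1421481_at, was lower in all pairs, by -0.36 on average, and is the 1 lower member of the list. Il2ra, the high-affinity subunit of the IL-2 receptor, had means of 1.20 and 1.15 on its probe sets and pairs from 0.03 to 2.85. Tnfrsf4, also known as OX40, had a mean of 1.00, and the ligands Tnfsf8 and Tnfsf11 had 0.72 and 0.67. Cd274, the PD-1 ligand, was at 0.41. The costimulatory receptors Icos and Cd28 had means of 0.07 and -0.09 with mixed signs, and Lag3, an inhibitory receptor, averaged 1.21 with the pair WT 2 at -0.65.

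Among secreted factors, Il21, a helper cytokine that acts on B cells and on T cells themselves, was at least 1.5-fold higher in every pair on probe set 1450334_at, with differences of 2.94, 0.98 and 3.55 in the N-ras KO and 1.89, 0.86 and 2.25 in the WT pairs and a mean of 2.08 (standard error 0.373, adjusted p = 0.569). The arrays overlapped widely, from 1.05 to 3.55 in stimulated and from -1.89 to 2.41 in control cells, and the representative probe set averaged 0.21 with mixed signs. Tnf, an inflammatory cytokine, was higher in all pairs by 0.37 to 2.16, with a mean of 1.04. Il2, the T-cell growth factor, averaged 1.35 and was higher in 5 pairs, with N-ras KO 1 at -1.59. Of 25 measured cytokines and cytokine receptors, 2 were higher (Tnf and Il4ra) and 2 lower (Il6ra and Ltb) in all pairs. That is 8% each way, against 2.63% and 2.12% of all genes, and the median was 0.13. Of 21 chemokines and chemokine receptors, Ccr8 and Cxcl10 (9.52%) were higher, by 2.07 and 1.43, and Cxcr3 (4.76%) was lower, by -0.41. Ccl22, a ligand of CCR4, had a mean of 2.67 over 5 higher pairs and 1 lower one.

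Cish and Socs2, STAT5 target genes that feed back on cytokine receptors, were higher in all pairs, with means of 1.62 and 1.45. Cish ranged from 0.58 to 3.27, and Socs2 from 0.56 to 3.33 on 1 of its 6 probe sets. Pim2, a kinase gene induced by cytokines, was higher by 0.48 with pairs from 0.25 to 0.77. Of the 16 STAT and SOCS genes measured, Cish and Pim2 (12.5%) were higher on the representative probe set and none was lower. With any probe set counted there were 4 higher (Socs2 and Stat5a in addition) and 3 lower, namely Jak1 (-0.13), Jak2 (-0.10) and Stat6 (-0.33).

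The NF-kappaB list had 4 of 16 members (25%) higher in all pairs, none lower and a median of 0.19. These were the subunit Rel, with a mean of 1.55 and pairs from 0.48 to 3.60, and the inhibitors Nfkbid (1.43), Tnfaip3 (0.75) and Nfkbia (0.20). All 5 probe sets of Nfkbia that are paired with this gene alone were higher in all pairs, by 0.12 to 0.38. The other subunits Rela and Relb had means of -0.07 and 0.22 with mixed signs. Among the 15 genes of ERK feedback, Spry1, an inhibitor of Ras and ERK signaling, was higher by 1.44 (pairs from 0.51 to 2.44). Dusp16, a MAP kinase phosphatase, and Etv5, an ERK-responsive Ets factor, were lower. That is 6.67% higher and 13.3% lower, against 2.63% and 2.12% of all genes.

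Genes of growth differed by smaller amounts and mostly in 1 direction. Of the 38 ribosome biogenesis genes measured, 35 had a mean above 0, with a median of 0.27, but 3 were higher in all pairs (7.89%) and none lower. These were Bysl (1.00), Nop56 (0.44) and Nob1 (0.39), factors of ribosomal RNA processing and subunit assembly. The median of this list was -0.01, -0.06 and 0.33 in the N-ras KO pairs and 0.39, 0.33 and 0.48 in the WT pairs, so that the shift was seen in 4 pairs. Mettl1, which modifies tRNA and belongs to no list, was at least 1.5-fold higher in each pair on 2 probe sets, with a mean of 1.00 on 1419122_at (standard error 0.105, adjusted p = 0.154), where its stimulated arrays (0.41 to 1.95) overlapped its control arrays (-0.25 to 0.77). Of the 34 genes of Myc, nutrient uptake and glycolysis, 4 (11.8%) were higher and none lower, namely Myc (0.88), the polyamine enzyme Odc1 (0.71), the lactate transporter Slc16a1 (0.44) and the glycolytic enzyme Pgk1 (0.14). Myc was at 0.02 and 0.01 in the pairs N-ras KO 1 and N-ras KO 2 and between 0.91 and 1.66 in the other 4. None of the 22 aminoacyl-tRNA synthetases and none of the 28 genes of mitochondrial respiration had the same sign in all pairs, and their medians were 0.11 and 0.04. The 25 cytosolic ribosomal protein genes had a median of 0.02 with Rps15 alone on one side, at 0.10.

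Of 32 mitosis genes, 27 had a mean above 0 and the median was 0.23. The phosphatase Cdc25c, the kinetochore protein Cenpf and the cytokinesis motor Kif23 were higher in all pairs, by 0.36, 0.56 and 0.21. The phosphatase Cdc25b was lower by -0.19. That is 9.38% higher and 3.12% lower, against 2.63% and 2.12% of all genes. Of 39 genes of DNA replication and nucleotide synthesis, Tk1 and Fen1 (5.13%) were higher in all pairs, by 1.05 and 0.66, with a list median of 0.09. Of the 18 G1 cyclins and CDK inhibitors, Ccnd2 and the inhibitor Cdkn1a (0.53) were higher (11.1%). Rb1, which restrains entry into S phase, was lower by -0.18 (5.56% of the list).

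Dusp16 and Kdelr3 were the 2 lower genes with an adjusted p under 0.2. Dusp16 (chromosome 6, probe set 1440615_at) stood at -1.79, -1.67 and -2.99 in the stimulated arrays labelled N-ras KO and at -2.78, -1.74 and -2.64 in those labelled WT, against 0.00, 0.12 and -1.95 in the control arrays labelled N-ras KO and 0.00, 0.37 and -0.80 in those labelled WT. The low control array of N-ras KO 3 overlapped the stimulated arrays, and the mean difference was -1.89 (standard error 0.207, 3.72-fold, adjusted p = 0.155). Its second probe set averaged -0.36 with mixed signs. That probe set was lower in all N-ras KO pairs and WT 3 (-0.43) but higher in WT 1 (1.12) and WT 2 (0.45). Kdelr3, a receptor that returns chaperones to the endoplasmic reticulum, differed by -1.75, -2.03 and -1.05 in the N-ras KO and -1.93, -1.11 and -1.92 in the WT pairs, with a mean of -1.63 (standard error 0.168, adjusted p = 0.149). Its stimulated arrays (-2.38 to -0.56) lay below all control arrays (-0.45 to 1.36), as for 12 probe sets in all (0.0266%). Ago4, an Argonaute protein of the microRNA pathway, averaged -1.55, the kinesin motor Kif3a -1.51, Bnip2 -1.36, the tRNA-modifying enzyme Tyw1 -1.22 and Tmem141 -1.18. Lcn4, a lipocalin, had the largest mean below 0, at -2.31 with pairs from -5.08 to -0.30.

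Single probe sets carried several of these genes. Bnip2 had 8 probe sets of which 1 was lower in all pairs and 4 averaged above 0. Tyw1 and Pcyt1b each had a second probe set near 0, at 0.03 and 0.12. Dnajc2 was lower in all pairs on 1454219_at, by -1.33, and higher in all pairs on another of its 4 probe sets. Among the genes at least 1.5-fold higher in each pair, the other probe sets of several had mixed signs. They averaged 0.46, -0.56 and -0.17 for Crem, -0.20 and 0.17 for Vcam1, and 0.13 and 0.52 for Ankrd33b. For Slamf1 they averaged 0.40 and 0.66, for Iigp1 0.56, for Fcer2a 0.78 and for Tmem17 1.60.

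Of 28 measured genes of resting T cells and quiescence, none was higher in all pairs, 3 (10.7%) were lower, and the median was -0.07, with the list below 0 in each pair. Dapl1, which marks naive T cells, differed by -0.91, -0.58 and -0.48 in the N-ras KO and -0.68, -0.34 and -0.48 in the WT pairs, with a mean of -0.58 (standard error 0.103, adjusted p = 0.569). Btg2, an antiproliferative gene, averaged -0.36, and Pik3ip1, an inhibitor of PI3 kinase, -0.19. With any probe set counted, Il7r, Klf3, Rasgrp2, Satb1 and Actn1 were lower in all pairs as well. Klf2, Foxo1 and Lef1, factors of the naive state, had means between -0.05 and -0.01. Of 18 genes of p53 and the damage response, Cdkn1a (0.53) was higher and Sesn2 (-0.18) and Btg2 were lower in all pairs, with a median of -0.02. That is 5.56% higher and 11.1% lower, against 2.63% and 2.12% of all genes. Other probe sets were higher for Aen (0.35) and lower for Sesn1 (-0.24 and -0.28). Of 14 genes of the Bcl2 family, none was higher and 2 (14.3%) were lower in all pairs, the pro-apoptotic Bik (-0.46) and Bad (-0.30). Of their means 10 were above 0, the median was 0.14, and Bcl2 itself was higher in all pairs on 1 probe set by 0.66.

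Some markers of B cells were higher in the stimulated cultures, in cells sorted for CD4. Of 19 measured, 4 were higher in all pairs (21.1%), 1 was lower, and the median was 0.22, with pairs from 0.08 to 0.37. Fcer2a, the low-affinity IgE receptor CD23, differed by 0.61, 1.95 and 1.89 in the N-ras KO and 2.39, 3.00 and 3.28 in the WT pairs, with a mean of 2.19 (standard error 0.335, 4.56-fold, adjusted p = 0.569). The adaptor Blnk averaged 1.54, the Ets factor Spib 0.67 and Ms4a1, which encodes CD20, 0.50, while Vpreb3 was at -0.44. The defining genes Cd79a, Cd79b and Pax5 had means of 0.21, 0.27 and 0.00 with mixed signs. Of 15 measured genes of MHC and antigen presentation, 3 (20%, against 2.63% of all genes) were higher in all pairs, 1 was lower, and the median was 0.12. The 3 were H2-Ab1 (0.64), H2-Eb1 (0.58) and Cd74 (0.44), which serve MHC class II, the form that B cells and other antigen-presenting cells express. The class II gene H2-Aa averaged 0.58 with 1 pair below 0, and the lower one was the class I gene H2-K1, at -0.08. In RNA of a whole sample, fewer cells of a type and less RNA per cell cannot be told apart, and the part of B cells in Cd83, Spib or class II differences was not tested.

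Most markers of other cells did not keep 1 sign. Of the 7 CD4+ T-cell markers measured, none had the same sign in all pairs, and the median was -0.05, with Cd4 at -0.07 and Cd3e at 0.03. Of the 20 macrophage and dendritic cell markers and of the 10 erythroid and platelet markers none was on one side, with medians of 0.03 and 0.04. The 14 neutrophil granule genes had no member on one side either, but their median ran from -0.84 in the pair WT 3 to 1.18 in the pair N-ras KO 1. Of 14 CD8 and NK cell markers, none was higher in all pairs. Gzmm alone was lower in all pairs (7.14%, against 2.12% of all genes), by -0.87, and Cd8b1 averaged -0.55 with 1 pair above 0. The list median was -0.21, with 4 of the 14 means above 0, and ran from -0.55 in the pair N-ras KO 1 to 0.30 in N-ras KO 3.

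**Figure D4:**
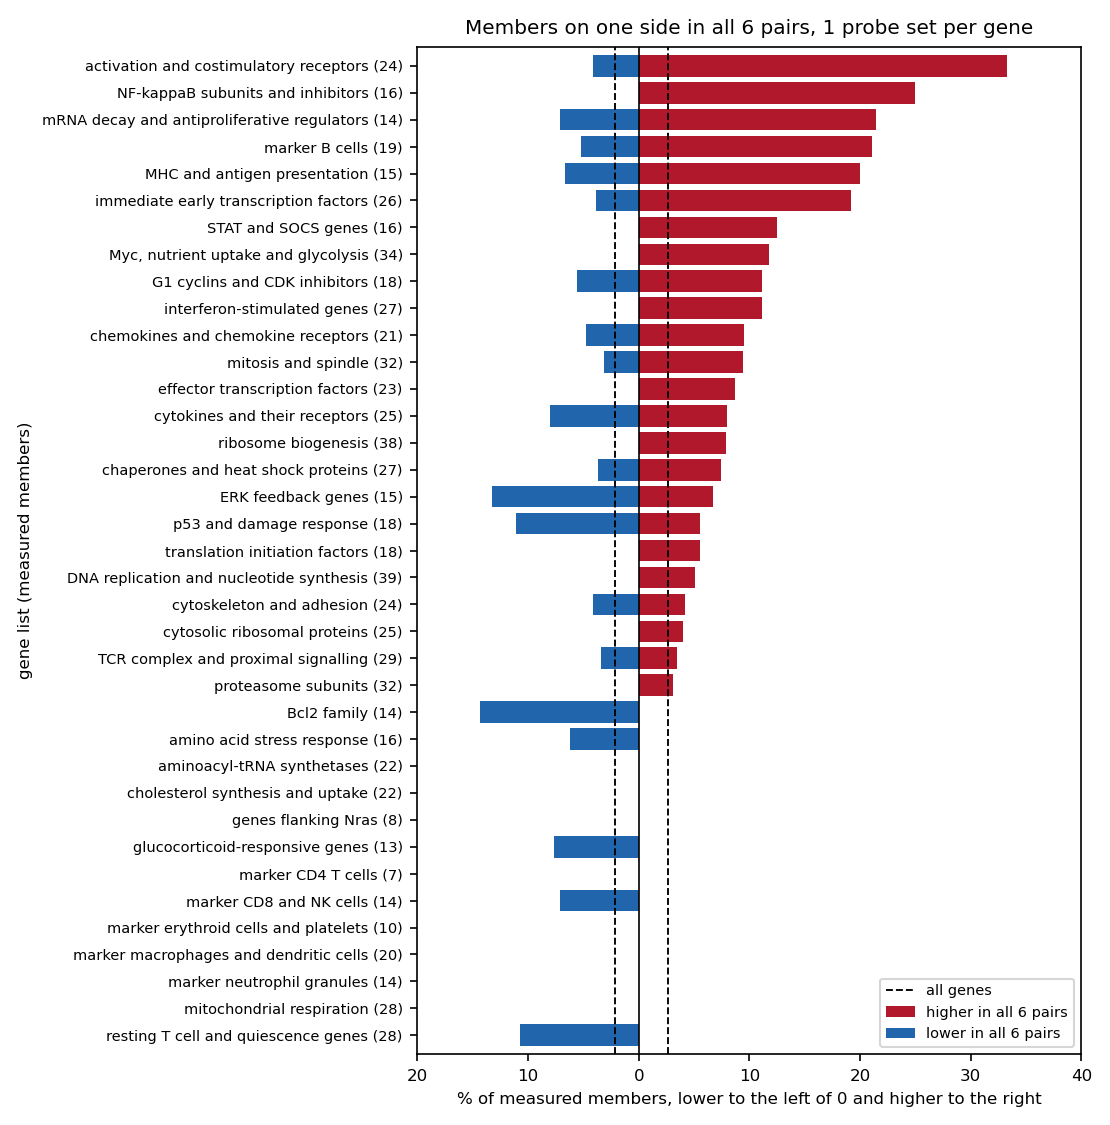
Share of the measured members of 37 gene lists that were higher (red, to the right) or lower (blue, to the left) in all 6 pairs, with 1 probe set per gene and the number measured in brackets. Dashed lines give the share over all 18194 genes, 2.63% higher and 2.12% lower, and the bar of activation and costimulatory receptors reaches 33.3%.

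Over the 37 lists, 764 different genes were measured, of which 59 were higher (7.72%) and 21 lower (2.75%) in all pairs, against 2.63% and 2.12% of all genes. The lists were compiled around T-cell activation and with earlier results of these data known, so these shares describe the lists. Shares well above that of all genes also came from other lists. Of 14 regulators of mRNA decay 3 (21.4%) were higher in all pairs (Zfp36, Zfp36l1 and Tob2, at 0.24, 0.45 and 0.33), but Btg2 was lower and the median was 0.04. Of 27 interferon-stimulated genes 3 (11.1%) were higher in all pairs (Irf1, Irf9 and Igtp, at 0.26, 0.53 and 0.63), none was lower, and the median was 0.03.

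**Figure D5:**
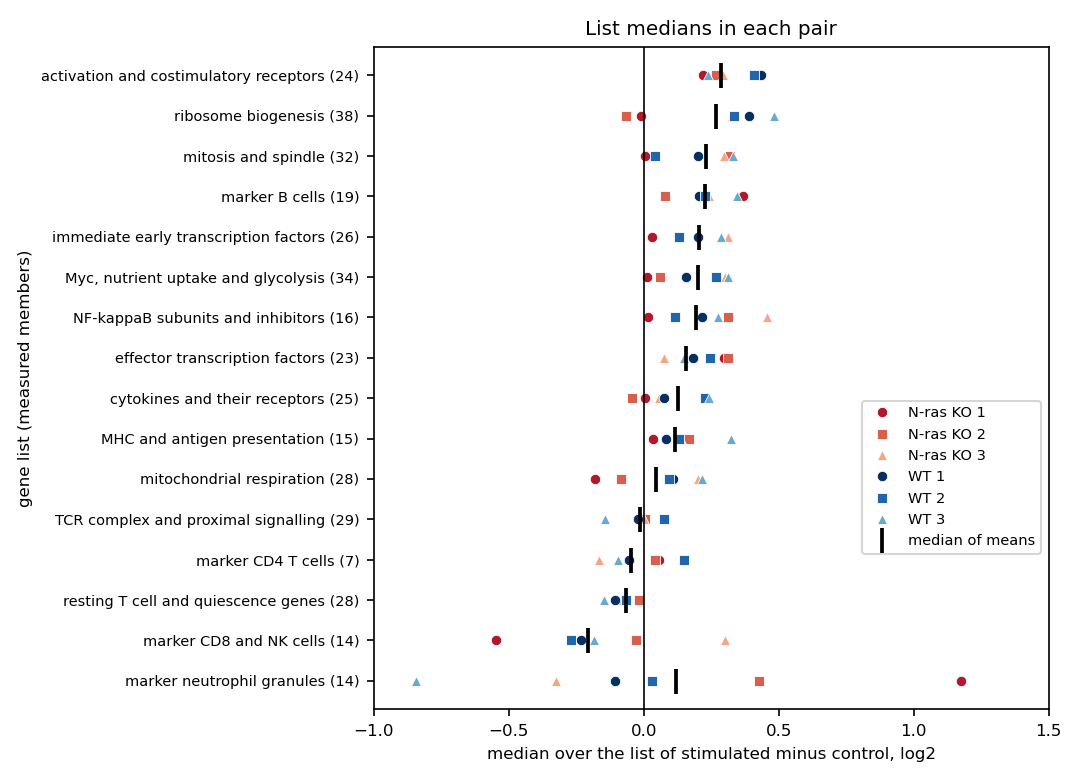
Median over the members of 16 gene lists of stimulated minus control (log2, x axis) in each pair, with the median of the members' means as a black tick. The activation receptors lay above 0 in all pairs (0.22 to 0.44) and the resting T-cell genes below 0 in all pairs (-0.15 to -0.02), whereas the neutrophil granule genes ranged from -0.84 to 1.18.

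Whether both genotypes responded alike was asked with genotype as a term in the fit of the 6 differences. No probe set differed at an adjusted p of 0.05 (0% of 45101), with a smallest adjusted p of 0.961, and 2067 (4.58%) had an unadjusted p under 0.05, 944 of them with a larger and 1123 with a smaller response in the arrays labelled N-ras KO. Of the 2051 probe sets with the same sign in all pairs, 64 (3.12%) did. Egr2 averaged 5.40 in the N-ras KO and 2.55 in the WT pairs, a difference of 2.85 (standard error 1.08, adjusted p = 0.961), and, chosen after their values were seen, Irf4, Fcer2a, Ccr8 and Cish also had unadjusted p values under 0.05, with Irf4 larger in the pairs labelled N-ras KO and the others larger in those labelled WT. With 3 pairs a genotype, and Nras against the label in 1 pair of each, these values do not show that the responses were alike.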

How the data were processed

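The authors deposited log2 expression values of 45101 Affymetrix probe sets. Per the methods they had been summarized by RMA-16 (GeneSpring), quantile normalized and shifted so that control samples have a median of 0; the processing notes list RMA with no version. The array type named in the methods has another number of probe sets. Gene names came from GEO's platform annotation (1 gene for 34958 probe sets, several for 932, none for 9211) and from RefSeq's GRCm38.p6 table. The thymocyte arrays were not used.

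The 6 paired differences were fitted with an intercept alone in limma 3.58.1 under R 4.3.3 (lmFit and eBayes, two-sided, Benjamini-Hochberg over all probe sets, threshold 0.05), after a test on simulated data. No filter on dim probe sets was possible. The pairs follow the numbers in the titles. Deviations of stimulated and control arrays with 1 number and genotype correlated at 0.361, 0.394 and 0.626 for N-ras KO and at 0.458, 0.447 and 0.738 for WT, and 6 of 6 stimulated arrays correlated best with their own control array. Per the methods, each repetition used a new mouse for every condition, while the labels name no mice. The p-values measure the spread between these pairs, which may in part be technical. The number of arrays limits the precision.

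Gene lists took 1 representative probe set per gene by type and then ID, with any probe set as an alternative. Members, lists and tests were chosen with earlier results of these data known. Genes named are the 15 per direction with the largest mean among those with the same sign in all pairs and an unadjusted p under 0.05 (as no probe set passed after adjustment), the 5 or fewer members per list with the smallest p, Nras, and list members that kept 1 sign or are set beside them. The rule for genes whose response differed between genotypes named none. Alternatives were other fits, other normalizations, subsets of probe sets and leaving out pairs.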

Additional observations from a re-analysis of the deposited data

Results flagged for a closer look

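Of 215 probe sets looked at, 21 had 1 pair far from the other 5 by Dixon's test, which chance does for about 1 in 20. The pair N-ras KO 3 stood apart for 8 of the 21, WT 3 for 5, N-ras KO 1 for 4, WT 2 for 2, and WT 1 and N-ras KO 2 for 1 each. No result had all pairs of 1 genotype on one side of 0 and all pairs of the other genotype on the opposite side.

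In the pair N-ras KO 3, Nr4a1 differed by 5.405 (the other pairs 2.03 to 2.88), Pdia6 by 1.085 (0.02 to 0.34) and Dgkz by 0.1857 (-0.34 to -0.15). The same pair was low for Mrs2 at -4.409 (the others -1.65 to -0.12), Arhgef39 at -3.461 (-1.48 to -0.34), Gzmm at -2.645 (-0.60 to -0.47), Tmem141 at -2.187 (-1.12 to -0.87) and the unnamed probe set 1458389_at at -3.56 (-1.47 to -0.65). The pair N-ras KO 1 was low for Adm, a vasoactive peptide, at 0.01397 (2.26 to 3.20), Il2 at -1.585 (1.29 to 2.57), Ccl22 at -0.5735 (2.54 to 4.19) and Bcl6 at -0.1179 (0.17 to 0.25). The pair WT 3 was high for Il4ra at 1.334 (0.04 to 0.45), Nfkbia at 0.3698 (0.11 to 0.20) and Zc3h12c at 3.016 (-0.05 to 0.68), and low for Slc38a2 at -1.314 (-0.28 to 0.05) and Prg2 at -2.456 (-0.67 to 0.12). In the remaining pairs, Kif3a was at -3.144 in WT 1 (-1.52 to -0.68), Dennd2c at 0.3179 (-1.15 to -0.76) and Cd4 at 0.3952 (-0.30 to -0.04) in WT 2, and Tspan2 at 3.216 in N-ras KO 2 (-0.41 to 0.46).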

How the results depend on the processing

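No alternative brought a probe set past an adjusted p of 0.05. The smallest adjusted p, 0.149 as reported, came nearest to it at 0.0577 with the paired differences quantile normalized and at 0.0638 with 1 probe set per gene. Without the replicate block, that is with the 12 arrays unpaired, 0 passed in either direction, the smallest adjusted p was 0.577, and 940 probe sets had an unadjusted p under 0.05 against 2921 with pairing. Numbers shared by both genotypes did not pair arrays (correlations of -0.234, -0.266 and -0.621 between controls), and that number as a random block gave a smallest adjusted p of 0.115. Leaving out 1 pair gave 0 each time. The count under an adjusted p of 0.2 was 11, but 2 without N-ras KO 1, 1 without N-ras KO 3 and 0 without N-ras KO 2 or any 1 WT pair.

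The same sign in all pairs was met by 544 higher and 504 lower probe sets after the arrays were quantile normalized again, by 479 and 386 with 1 probe set per gene, by 1702 to 2095 and 1615 to 1825 with 1 pair left out, by 3199 and 3018 without N-ras KO 3 and WT 1, by 2828 and 3082 without both pairs numbered 3 (chosen after seeing the data), by 6217 and 5796 in the 3 N-ras KO pairs and by 6559 and 6072 in the 3 WT pairs, where fewer pairs have to share a sign. With a mean of at least 1.5-fold 261 and 296 remained, at 2-fold 78 and 52, at 1.5-fold in each pair 21 and 8, and at an adjusted p under 0.2 9 and 2. Counting any probe set gave 89 higher and 39 lower list genes in place of 59 and 21. For the 36 most changed probe sets all 778 values under the alternatives kept their direction, and for 171 probe sets of list members 3736 of 3759 did. The 36 had been chosen for the same sign in all pairs, so leaving out or reweighting pairs could not reverse their means. For those alternatives the outcome was fixed by the choice and does not test robustness. The same holds for those of the 171 that kept 1 sign in all pairs.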

Other observations

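Of 27 chaperones measured, 2 were higher (7.41%, against 2.63% of all genes) and 1, Dnajb1, was lower in all pairs, with a median of 0.09. The higher ones were Hyou1, which averaged 0.50 on its representative probe set but was lower in all pairs on another, by -0.35, and the disulfide isomerase Pdia6 at 0.31. With any probe set counted, Hspa5 (0.44) and Pdia4 (0.30) were higher too, whereas Kdelr3, the receptor that retrieves such chaperones, was at -1.63. Of 29 genes of the TCR complex and proximal signaling, the adaptor Sla was higher by 0.50 and the kinase Dgka lower by -0.10 in all pairs, with a median of -0.01. That is 3.45% each way, near the 2.63% and 2.12% of all genes, and Dgka was at only -0.0003 in the pair N-ras KO 3. No cholesterol gene of 22 kept 1 sign, with a median of 0.04. Of 13 glucocorticoid-responsive genes 1 was lower in all pairs (7.69%, against 2.12% of all genes) and the median was -0.13.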
